A study of Homo sapiens with 4 samples.

Results

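Immediate early genes and the subunits of the transcription factor AP-1 were followed in cells labelled DLD-1, a line derived from a human colorectal carcinoma, after treatment with creatine. The 10 genes were chosen by symbol: EGR1, the FOS family (FOS, FOSB, FOSL1 and FOSL2), the JUN family (JUN, JUNB and JUND), IER2 and IER3. All 10 had a row among the 34545 symbols of the deposited count table, and 9 of them were among the 15302 genes with enough reads to be tested. IER3 was not. RNA was sequenced from 2 libraries labelled Creatine and 2 labelled Ctrl (control). All 4 are labelled as wild-type (WT) DLD-1 cells, with no other allele or agent named, and neither the dose, the duration nor what the controls received is given in the labels. The study asked how creatine bears on ferroptosis, a cell death driven by iron and lipid peroxidation, and its title places ERK2 signalling downstream of creatine uptake.

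Immediate early genes are transcribed within minutes of a growth factor or stress signal, before any new protein is made. The kinase ERK and its relatives phosphorylate ETS-type factors such as ELK1, which bind with SRF to the serum response element of these genes, and kinases below ERK also activate CREB on cyclic AMP response elements. FOS and JUN proteins then pair through leucine zippers to form AP-1: JUN proteins can pair with each other, FOS proteins need a JUN partner. Many of the messages carry AU-rich elements that speed their decay, so their level follows the signal closely.

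The libraries held 51073738 and 48249693 counts in the creatine group and 59860043 and 49207427 in the controls. Counts of the creatine pair and of the control pair differed by more than sampling noise (chi-square per degree of freedom 8.97 and 16.1, against 35.5 to 55.6 across groups), so each library was counted as a sample. Nothing in the labels says that libraries came from separate cultures, so the p-values speak only of library-to-library spread, and that spread may be technical. Of 10 markers of intestinal epithelium, 8 were under 1 CPM (counts scaled to the library total) in every library, and CDX1 had no count in any. EPCAM, CDX2 and VIL1 had 0 counts in both creatine libraries and in control 2, and 2, 8 and 7 counts in control 1. The mesenchymal gene VIM stood at 2329 and 2362 CPM with creatine and 2687 and 2538 CPM in controls. CDH1 had 10 to 20 counts in a library, and the mesenchymal gene CDH2 stood at 158 to 196 CPM. Apart from KRT8 and KRT18, these markers go against the epithelial line that the labels name. The identity of the cells was not tested, so the libraries go by their labels here, not by a cell type. Epithelial markers summed to 327 and 341 CPM with creatine and 391.5 and 395 CPM in controls, nearly all of it KRT8 and KRT18. Mesenchymal markers, 6 of 7 above 10 CPM, summed to 3226 to 3299 CPM with creatine and 3430 to 3621 CPM in controls, a sum carried by VIM. ZEB1 lay the other way, at 80.2 and 85.6 CPM with creatine and 64.6 and 59.9 CPM in controls, as did ZEB2 and SNAI2 in every library. Fibroblast markers, 4 of 7 under 1 CPM, summed to 10.7 to 13.8 CPM with creatine and 12.8 to 12.9 CPM in controls. Immune markers, 4 of 7 under 1 CPM, summed to 164 to 166 CPM with creatine and 189 to 198 CPM in controls, most of it CD68. Endothelial markers, 2 of 5 under 1 CPM, summed to 313 to 317 CPM with creatine and 372 to 385 CPM in controls, nearly all of it TIE1. CD14 had at most 2 counts in a library, PTPRC at most 24 and CDH5 at most 14. The part of other cells in the results was not tested. In bulk samples fewer cells of a type and less RNA per cell cannot be told apart.

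Promoter sequences were searched for the letters of elements known to switch on immediate early genes. RefSeq gave the stretch from 250 bases before to 50 bases after the start for 8 of the 10 genes, on GRCh38.p14. FOSL1 and IER3 were not matched. The EGR1 promoter is shown because EGR1 had the largest fall among the members that passed the test, and JUND because it had the next largest. Both are the 250 bases before the start, 5′ to 3′ on the gene's strand, at chr5:138465229-138465478 (plus strand) and chr19:18281623-18281872 (minus strand). Capitals mark CArG boxes, the SRF-binding core of the serum response element, and the sequence TGACG or its reverse complement CGTCA, which is one side of the cyclic AMP response element. In JUND the full palindrome TGACGTCA is present.
EGR1: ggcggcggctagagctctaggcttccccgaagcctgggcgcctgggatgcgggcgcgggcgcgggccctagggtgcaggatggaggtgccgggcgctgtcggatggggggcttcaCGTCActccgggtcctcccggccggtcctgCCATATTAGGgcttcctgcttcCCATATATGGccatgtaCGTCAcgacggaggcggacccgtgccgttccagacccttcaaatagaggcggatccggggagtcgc
JUND: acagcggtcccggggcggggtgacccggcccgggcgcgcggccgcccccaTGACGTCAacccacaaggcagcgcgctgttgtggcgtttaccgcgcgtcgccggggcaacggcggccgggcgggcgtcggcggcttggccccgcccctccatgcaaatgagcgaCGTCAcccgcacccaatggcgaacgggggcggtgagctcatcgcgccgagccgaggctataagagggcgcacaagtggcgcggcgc

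Among the patterns searched, TGACG alone was common to these promoters. It was found in 8 of 8, on either strand, against 25.0% of 27305 RefSeq promoters of the same length and 32.4% of the 11330 that belong to tested genes. Other short sequences that they may share were not searched for. The 30 bases around the TGACG copy nearest the start are shown for each gene, with TGACG or CGTCA in capitals.
EGR1: atatggccatgtaCGTCAcgacggaggcgg
FOS: gtggttgagcccgTGACGtttacactcatt
FOSB: agcaaggggcgggTGACGtaagcagggggg
FOSL2: tggagtctggggtTGACGtgagtgaatcca
JUN: ggagtctccatggTGACGggcgggcccgcc
JUNB: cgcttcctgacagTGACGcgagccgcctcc
JUND: tgcaaatgagcgaCGTCAcccgcacccaat
IER2: ccacccccgccccCGTCAcgccaccatcga
They lie at chr5:138465400-138465429, chr14:75278751-75278780, chr19:45467923-45467952, chr2:28392779-28392808, chr1:58784154-58784183, chr19:12791336-12791365, chr19:18281692-18281721 and chr19:13150258-13150287, in that order, JUN and JUND on the minus strand. In EGR1, FOS, FOSB and FOSL2 the copy began 60 to 66 bases before the RefSeq start. In the other 4 genes it began 86 to 140 bases before that start. The RefSeq start can differ from the GENCODE gene coordinates given further below. By those coordinates the windows of FOSL2 and JUN lie inside the gene, and that of FOS spans its first base. Within the stretch searched, a CArG box was found in EGR1 alone, which had 2, against 1.29% of all promoters. Boxes further from the start, or with other letters than the strict pattern, were not searched for, so the other members may have them. TGACNTCA, which overlaps TGACG where N is G, was found in JUN and JUND (7.97% of all), the AP-1 site TGANTCA in FOSL2 (7.76%), the EGR1 site GCGNGGGCG in EGR1 itself (9.28%), and TATAAA in FOS, FOSB and JUNB (12.0%). In JUN the TGACNTCA match began at -67 from the start, outside the 30 bases shown. These are matches of letters on both strands within a short window, and the members' promoters, at 62.0 to 77.0% GC, were all above the median of 58.3%. Whether any of the copies acts on its gene was not tested. In the 3′ untranslated region, ATTTA, the core of AU-rich elements, was found in 9 of 10 members, IER2 being the exception, and in 72.7% of 13291 tested genes. The longer form TTATTTATT was found in FOS and FOSL2 and in 9.25% of those genes. The site in FOS, in capitals, is shown because the AU-rich element of FOS is the classical example.
FOS: tgtttttaatTTATTTATTaagatggatt

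Transcripts of FOSL1 and JUN were far more abundant than those of FOS and FOSB in every library. Levels between genes are compared as RPKM, CPM per kilobase of the deposited gene length. FOSL1, which encodes FRA-1, stood at 180 ± 3.02 RPKM with creatine and 220 ± 3.38 RPKM in controls (SD, n = 2 each). JUN followed at 163 ± 7.29 RPKM with creatine and 194 ± 6.499 RPKM in controls. FOSL2, JUND, IER2 and JUNB formed a middle tier, between 26.3 and 47.7 RPKM with creatine and between 32.3 and 65.2 RPKM in controls. EGR1 was at 4.08 ± 0.145 RPKM with creatine and 7.21 ± 0.350 in controls, FOS at 3.10 ± 0.0924 RPKM with creatine and 3.99 ± 0.204 in controls. FOSB was at 0.151 ± 0.0154 RPKM with creatine and 0.255 ± 0.00847 in controls. In the controls the order was FOSL1, JUN, JUND, FOSL2, IER2, JUNB, EGR1, FOS and FOSB, and the libraries of each gene lay apart from those of its neighbour. With creatine JUND came after FOSL2, and JUND could not be separated from FOSL2 or from IER2, since their libraries overlapped. These orders hold for the deposited lengths. FOS has a deposited length of 3238 bases and a longest transcript of 2158, and EGR1 has 3138 for both. The place of FOS beside EGR1 thus depends on the length used.

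**Figure D1:**
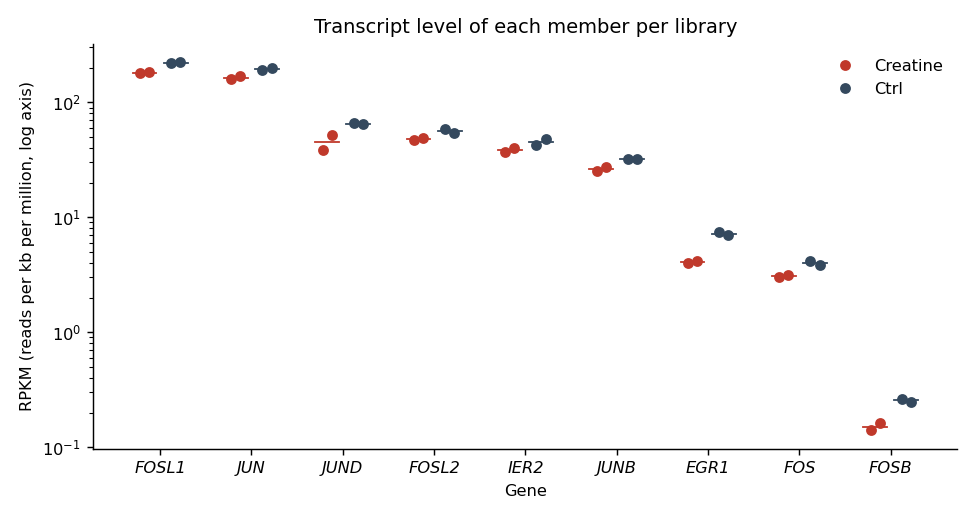
Level of each tested member in RPKM (log axis), with 1 point per library and a line at the mean of the 2 libraries, creatine left of control. FOSL1 and JUN lie above 100, EGR1 and FOS below 10, and in all 9 genes both creatine points lie below both control points.

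IER3, an early response gene tied to cell survival, had 0 counts in both creatine libraries and 2 counts in each control. Both groups are under the floor of 3 counts that a count of 0 still allows, so no fold change is given.

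All 9 tested members were lower in both creatine libraries than in both controls, and 7 fell by the test: EGR1, FOSL1, FOSL2, JUN, JUNB, JUND and IER2. FOS and FOSB did not pass. The test was edgeR's quasi-likelihood test with p-values adjusted over all 15302 genes and a threshold of 0.05. By the same rule 10.5% of all tested genes were lower and 9.15% were higher, and 28.9% of them had both creatine libraries below both controls. None of the members was called higher: the count was 0 with edgeR, with DESeq2 and with limma-voom, and 0 at an unadjusted p under 0.05, where 14.2% of the 10258 genes to which DESeq2 gave an adjusted p were higher, FOSB not being among them, and, of all 15302, 9.97% with limma-voom and 15.7% at the unadjusted p. At the unadjusted p 8 members were lower, against 16.5% of genes. The count of members that fell was 6 with upper quartile scaling (9.27% of genes) and 8, with FOS, when the replicate number was added as a block (12.7%). The median log2 change of the 9 tested members was -0.30, against 0.01 over all tested genes.

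EGR1 (chromosome 5, 138465490 to 138469315, GRCh38), a zinc finger factor and a classical readout of ERK activity, was at 12.5 and 13.1 CPM in creatine libraries 1 and 2, against 23.4 and 21.9 CPM in control libraries 1 and 2. The creatine libraries lay close together, at 56.6% of the control mean. The log2 change was -0.82 (SE 0.12, 95% interval -1.07 to -0.57, adjusted p = 0.000208), and 2.52% of tested genes had a change as low or lower. It passed in the 20 alternative fits run, with values between -0.88 and -0.65.

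**Figure D2:**
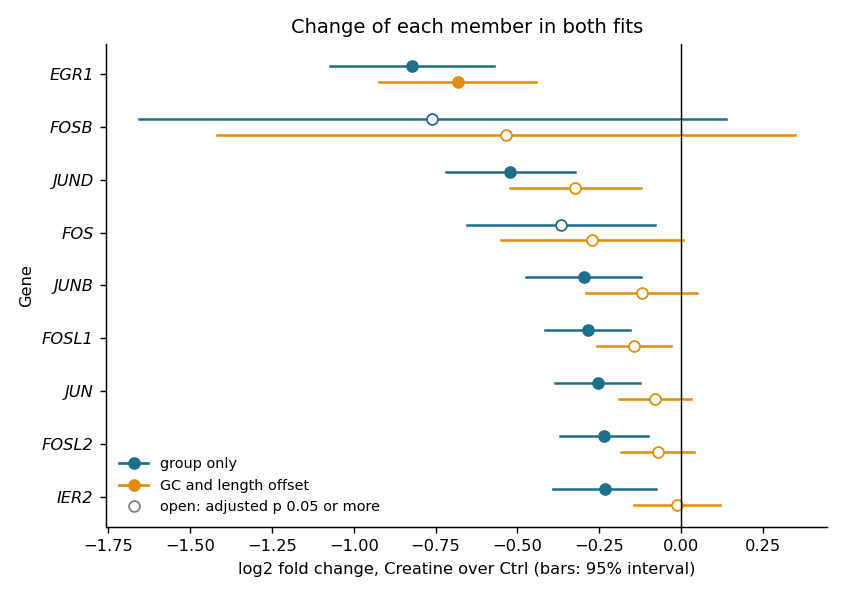
Log2 fold change of each tested member, creatine over control, with 95% intervals, from the fit with the group alone and from the fit with an offset for GC content and length. Filled points passed an adjusted p of 0.05: 7 members in the fit with the group alone and only EGR1 in the fit with the offset.

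Among the JUN family, JUND (chromosome 19, 18279760 to 18281622), a subunit that many resting cells express steadily, had 72.1 and 97.3 CPM in creatine libraries 1 and 2, against 122 and 121 CPM in the controls. The 2 creatine libraries differed more from each other than the controls did. Its log2 change was -0.52 (SE 0.10, adjusted p = 0.000945). DESeq2 gave the same change with a wider SE, 0.21, and an adjusted p of 0.0461, close to the threshold. The value rests in part on a single library: it was -0.32 without creatine 1 (adjusted p = 0.0336) and -0.76 without creatine 2. JUN (chromosome 1, 58780788 to 58784327), the founding AP-1 subunit, was at 558 and 595 CPM with creatine, against 671 and 704 CPM in controls. Its libraries lay apart by less than in EGR1, and the log2 change was -0.25 (SE 0.06, adjusted p = 0.0069). JUNB (chromosome 19, 12791496 to 12793315), a subunit that can oppose JUN in growth control, was at 46.1 and 49.7 CPM with creatine, against 58.9 and 58.8 CPM in controls, a log2 change of -0.30 (SE 0.09, adjusted p = 0.0164). Without creatine 1 neither JUN (-0.21, adjusted p = 0.151) nor JUNB (-0.24, adjusted p = 0.200) passed. JUNB overlaps HOOK2, which lies on the other strand and had 619 to 641 counts with creatine and 728 to 844 in controls, so part of its 2372 to 3528 counts is uncertain, as the strand setting is not given.

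In the FOS family the 2 abundant members fell. FOSL1 (chromosome 11, 65892049 to 65900573), which is sustained by ERK in RAS-driven carcinoma cells, was at 336 and 344 CPM with creatine, against 410 and 419 CPM in controls. The gap between groups was several times that within them, and the log2 change was -0.29 (SE 0.06, adjusted p = 0.00337). A pseudogene of FOSL1 is annotated, and how reads with several matches were counted is not given. FOSL2 (chromosome 2, 28392448 to 28417312), which encodes FRA-2, was at 334 and 348 CPM with creatine, against 416 and 387 CPM in controls, a log2 change of -0.24 (SE 0.07, adjusted p = 0.0136). It overlaps annotated noncoding genes on both strands. Without creatine 1, FOSL1 (-0.27, adjusted p = 0.0581) and FOSL2 (-0.21, adjusted p = 0.173) did not pass. FOS itself (chromosome 14, 75278774 to 75282230), the most transient of the family, was at 9.83 and 10.3 CPM with creatine, against 13.4 and 12.5 CPM in controls. Its groups did not overlap, but the log2 change of -0.37 (SE 0.14, 95% interval -0.65 to -0.08) did not pass after adjustment (adjusted p = 0.0666). FOSB (chromosome 19, 45467995 to 45475179), a further transient member, had 40 and 43 counts with creatine and 87 and 68 in controls. Its log2 change was -0.76, with a 95% interval from -1.66 to 0.14 (adjusted p = 0.237). That interval holds 0 as well as the value of EGR1 at this depth. FOSB overlaps ERCC1, a repair gene on the other strand with 4523 to 4576 counts with creatine and 5148 to 6297 in controls. As the strand setting is not given, the 40 to 87 counts of FOSB, and its change, are uncertain for that reason too.

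IER2 (chromosome 19, 13150415 to 13154908), a nuclear early response protein, was at 114 and 122 CPM with creatine, against 129 and 148 CPM in controls. The controls differed more than the creatine libraries, and the log2 change was -0.23 (SE 0.08, adjusted p = 0.0331). It did not pass without creatine 1 (adjusted p = 0.274), without control 2 (adjusted p = 0.191) or with upper quartile scaling (adjusted p = 0.0504). An antisense gene is annotated over IER2. With creatine 1 left out, the count of members that fell was 2, EGR1 and JUND, where 3.76% of all tested genes were lower, and with control 2 left out it was 6, where 10.8% were.

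**Figure D3:**
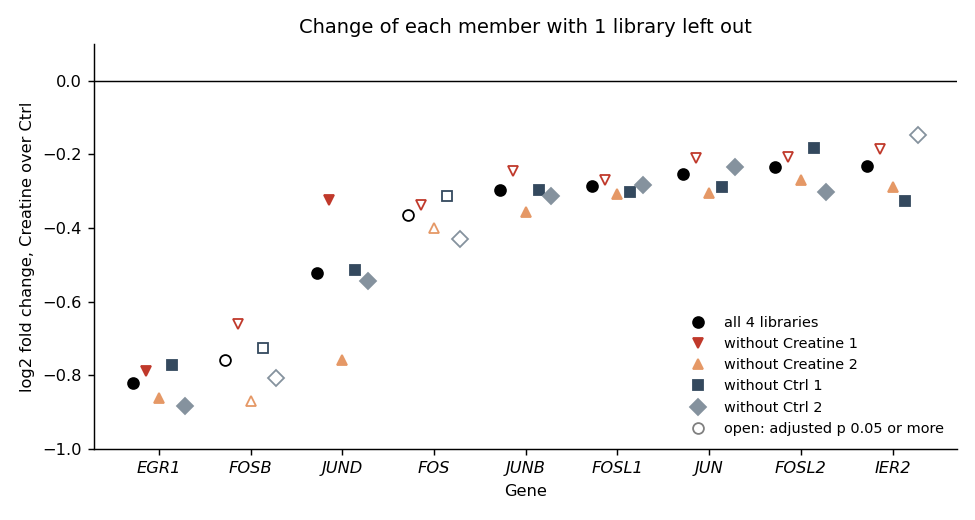
Log2 fold change of each tested member, creatine over control, with all 4 libraries and with each library left out in turn. Filled points passed an adjusted p of 0.05: EGR1 and JUND stay filled throughout, while 5 members turn open without creatine 1.

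Both families were led by the same gene in every library, FOSL1 among FOS genes and JUN among JUN genes. FOSL1 took 78.0 ± 0.228% of FOS family transcripts per length with creatine and 78.5 ± 1.14% in controls (SD, n = 2 each). FOSL2 took 20.6 ± 0.209% with creatine and 20.02 ± 1.07% in controls, and FOS took 1.34 ± 0.0136% with creatine and 1.43 ± 0.0738% in controls. FOSB made up 0.0652 ± 0.00537% with creatine and 0.0912 ± 0.00310% in controls. Among JUN transcripts, JUN took 71.1 and 67.9% in creatine libraries 1 and 2, against 65.9 and 67.2% in controls, and JUND took 17.5 and 21.1% with creatine, against 22.8 and 21.9% in controls. JUNB was at 11.2 ± 0.271% with creatine and 11.1 ± 0.235% in controls. The groups of FOS, FOSB, JUN and JUND did not overlap in share (exact permutation test, two-sided, p = 0.3333 for each), and 0.3333 is the smallest p that 2 against 2 allows, so no share can pass a test here. With 1 library left out the difference in share, creatine minus control, ran from 1.32 to 4.57 percentage points for JUN and from -4.91 to -1.27 for JUND. The sum of the 4 FOS genes was 231 ± 4.55 RPKM with creatine and 280.2 ± 0.226 RPKM in controls, and that of the 3 JUN genes was 235 ± 18.3 RPKM with creatine and 292 ± 5.99 RPKM in controls. FOS over JUN family transcripts came to 0.988 ± 0.0575 with creatine and 0.960 ± 0.0189 in controls.

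**Figure D4:**
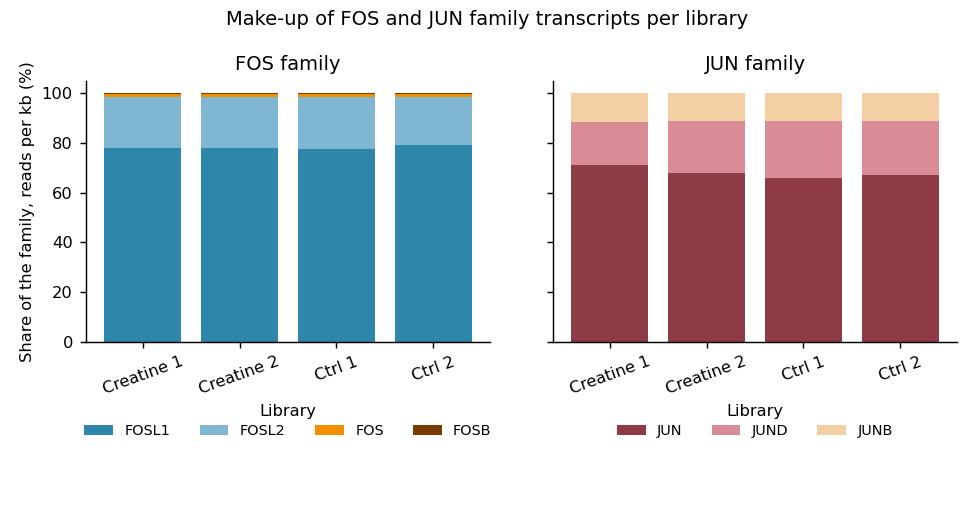
Share of each member in the FOS family and JUN family transcripts of a library, in percent of RPKM, as stacked bars, creatine libraries left of control libraries. FOSL1 fills 77.7 to 79.3% of the FOS bar in every library, and the JUND part is smallest in creatine 1, at 17.5%.

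The members share a high GC content, and in these libraries the direction of change followed GC content over all genes. The longest transcripts of the 10 members had 52.6 (FOS) to 69.7% GC (JUND), and JUN, JUNB and JUND lie on a single exon. Among tested genes with 50 to 55% GC, 12.5% were lower and 1.64% were higher with creatine. With 55 to 60% GC, 24.8% were lower and 0.717% higher, and with 60 to 65% GC 31.7% were lower and 0.716% higher. Above 65% GC, where JUND lies, 30.7% were lower and 0.412% higher. Below 45% GC the picture was the other way round, with 0.295% lower and 21.1% higher. Slopes on GC were taken from each gene's deviation in log2 CPM from its mean over the 4 libraries. They were negative in both creatine libraries (-0.12 and -0.07 per 10 points) and positive in both controls (0.07 and 0.12). Such slopes are relative and balance out over the libraries, so both signs had to occur, though not split by group. The trend and the treatment cannot be told apart. Of the 9 tested members, 7 had over 55% GC and 2 had 50 to 55%.

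**Figure D5:**
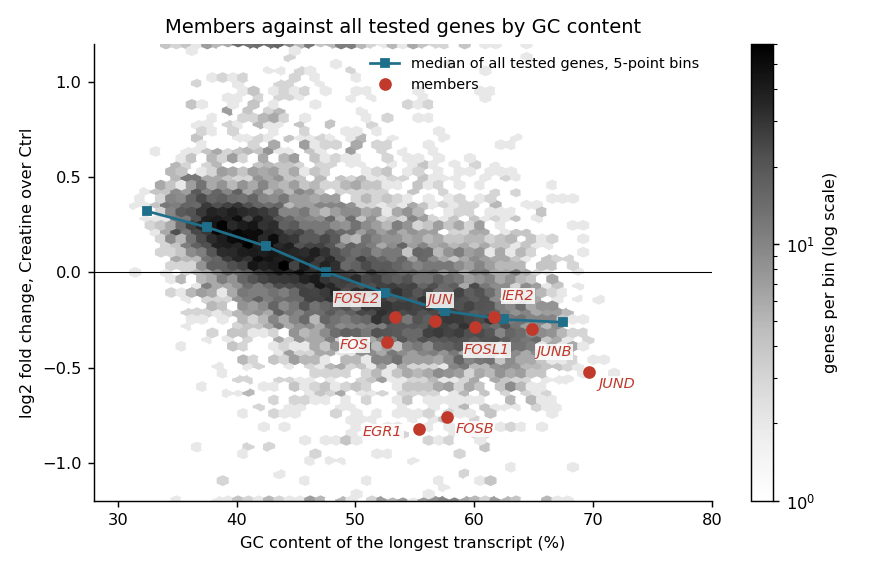
Log2 fold change, creatine over control, against the GC content of the longest transcript for all tested genes (grey, log colour scale, values beyond 1.2 drawn at the edge), with the median in bins of 5 points and the 9 tested members in red. EGR1 and FOSB lie furthest below the median line, and IER2, at -0.23 and 61.7% GC, lies close to it.

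Set beside genes within 2 points of the same GC content, the members differed in how far they stood apart. EGR1, at -0.82, stood against a median log2 change of -0.15 over 1844 such genes, FOSB at -0.76 against -0.21 over 1798, JUND at -0.52 against -0.31 over 121, and FOS at -0.37 against -0.11 over 1955. JUNB at -0.30 stood against -0.27, FOSL1 at -0.29 against -0.23, JUN at -0.25 against -0.18, FOSL2 at -0.24 against -0.12 and IER2 at -0.23 against -0.24. A smooth trend on GC content and gene length was then removed from every library, a step that takes out any change that follows these properties, whatever its source. EGR1 alone passed, with a log2 change of -0.68 (SE 0.11, adjusted p = 0.0108), 1 of 9 members, where 0.863% of all tested genes were called lower. EGR1 was also the 1 member called with GC content alone removed (1.33% of genes lower), and JUND joined it with the replicate block in the corrected fit (2.53%). JUND was at -0.32 (adjusted p = 0.100), FOS at -0.27 (adjusted p = 0.330) and FOSB at -0.54 (adjusted p = 0.590). FOSL1 was at -0.14 (adjusted p = 0.188), JUNB at -0.12 (0.508), JUN at -0.08 (0.493), FOSL2 at -0.07 (0.571) and IER2 at -0.01 (0.962, 95% interval -0.14 to 0.12), and IER2 was at 0.00614 with GC content alone removed. With GC content and length removed the median of the tested members was -0.14, against 0.00 over all tested genes. JUND passed in that fit without creatine 2 (-0.45, adjusted p = 0.00444) and without control 2 (-0.47, adjusted p = 7.4e-05), and not without creatine 1 (-0.15, adjusted p = 0.589) or control 1 (-0.12, adjusted p = 0.557). With 1 library left out, the corrected EGR1 stayed between -0.73 and -0.65, with adjusted p between 0.000326 and 0.0166.

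Few other immediate early genes passed. Of 28 in the list 22 were tested, 3 were lower and 19 did not pass, with a median log2 change of -0.05, so the share called lower was near the 10.5% of all genes. SRF, which binds the CArG box, had 88.4 ± 7.47 CPM with creatine and 109 ± 4.93 CPM in controls (-0.31, adjusted p = 0.00751). The growth regulator MYC had 259 ± 11.8 CPM with creatine and 312 ± 6.65 CPM in controls (-0.27, adjusted p = 0.00633), and KLF2, a zinc finger factor, 134 ± 13.6 CPM with creatine and 155 ± 4.49 CPM in controls (-0.21, adjusted p = 0.0499). None of the 3 passed after the trend was removed (-0.06, -0.16 and -0.02). Without creatine 1, SRF (adjusted p = 0.173), MYC (0.138) and KLF2 (0.561) did not pass, nor did KLF2 without control 2 (0.0506) or with upper quartile scaling (0.0690). EGR3 and KLF4 had too few reads to be tested, and EGR4 and ZFP36 had no count in any library.

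Genes that switch the members on moved both ways, with more lower than higher. Of 21 tested, 7 were lower, 3 were higher and 11 did not pass, with a median log2 change of 0.01, beside 10.5% lower and 9.15% higher over all tested genes. With the trend removed 0 were lower and 0 higher. MEF2D, a MADS-box factor like SRF, had 41.6 ± 0.584 CPM with creatine and 56.8 ± 6.49 CPM in controls (-0.45, adjusted p = 0.00204). RPS6KA4, the kinase MSK2 that phosphorylates CREB and histone H3, had 91.1 ± 6.05 CPM with creatine and 121 ± 6.09 CPM in controls (-0.41, adjusted p = 0.0010). SRF, given above, was lower too. So were CREBBP (-0.32, adjusted p = 0.00374), RPS6KA1 (-0.41, 0.0105), ELK1 (-0.325, 0.0123) and RPS6KA2 (-0.37, 0.0462), named after their values were seen. With the trend removed these lay at -0.10, -0.20, -0.15 and -0.19, in that order. Their values with a library left out are not given here. RPS6KA3, the kinase RSK2 below ERK, was higher, at 65.1 ± 0.0519 CPM with creatine and 49.97 ± 0.591 CPM in controls (0.38, adjusted p = 0.00283), and with it ELK4 (0.31) and MEF2A (0.28), both chosen after their values were seen. ELK4 did not pass without creatine 1 (adjusted p = 0.173), creatine 2 (0.0555) or control 2 (0.0561), nor MEF2A without creatine 1 (0.633) or control 2 (0.150) or with library totals as the scaling (0.0510). RPS6KA4 and MEF2D have 64.7 and 56.8% GC, and RPS6KA3, ELK4 and MEF2A 40.0, 38.5 and 41.3%. Once the trend was removed MEF2D was at -0.23 (adjusted p = 0.177), RPS6KA4 at -0.14 (0.259), RPS6KA3 at 0.24 (0.116), ELK4 at 0.13 (0.498) and MEF2A at 0.16 (0.396).

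Among 17 tested bZIP partners of AP-1 outside the families, 3 were higher and 14 did not pass, with none lower (median -0.05), beside 9.15% higher over all tested genes. CEBPG, a partner of ATF4, had 224 ± 9.23 CPM with creatine and 173 ± 6.79 CPM in controls (0.37, adjusted p = 0.000872). DDIT3, the stress factor CHOP, had 199 ± 1.57 CPM with creatine and 164 ± 16.96 CPM in controls (0.28, adjusted p = 0.00864), and NFE2L2, the antioxidant factor NRF2, 156 ± 1.27 CPM with creatine and 135 ± 2.77 CPM in controls (0.21, adjusted p = 0.0354). After the trend was removed 2 were higher, against 1.05% of all tested genes: CEBPG (0.30, adjusted p = 0.017) and MAFK (0.41, adjusted p = 0.012), a small MAF protein chosen after its value was seen, which did not pass with the group alone (0.14, adjusted p = 0.240). The corrected call of CEBPG was lost without creatine 1 (0.25, adjusted p = 0.124). DDIT3 did not pass without control 1 (0.0751), nor NFE2L2 without creatine 1 (0.178), creatine 2 (0.213) or control 2 (0.0989).

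Of 25 tested genes known as AP-1 targets, 4 were lower, 1 was higher and 20 did not pass, with a median log2 change of 0.01. Over all tested genes 10.5% were lower and 9.15% higher, and 2 of the 4 were the members FOSL1 and JUN. TGFB1, a growth inhibitory cytokine listed for AP-1 and EGR1 alike, had 126 ± 7.23 CPM with creatine and 181 ± 4.84 CPM in controls (-0.52, adjusted p = 9.5e-05), and passed with the trend removed (-0.28, adjusted p = 0.0305). That corrected call was lost without creatine 1 (adjusted p = 0.149), creatine 2 (0.0754) or control 1 (0.135). The protease PLAU (-0.20) was lower and the cytokine IL1A (0.41) higher, both chosen after their values were seen. PLAU did not pass without creatine 1 (adjusted p = 0.0789) or creatine 2 (0.275), nor IL1A without creatine 2 (0.174), and with the trend removed PLAU was at -0.10 (0.454) and IL1A at 0.13 (0.635). Of 14 EGR1 targets, TGFB1 was lower, 2 were higher and 11 did not pass (median -0.02), beside the same 10.5% lower and 9.15% higher. Tissue factor F3 had 245 ± 12.8 CPM with creatine and 209 ± 0.326 CPM in controls (0.23, adjusted p = 0.0167), and the growth factor FGF2 44.6 ± 1.26 CPM with creatine and 35.8 ± 0.9999 CPM in controls (0.32, adjusted p = 0.0178). Neither passed with the trend removed (0.11 and 0.09). F3 did not pass without creatine 1 (0.275), nor FGF2 without creatine 1 (0.072), creatine 2 (0.133) or control 2 (0.0644).

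Genes that act on the decay of AU-rich messages were mixed as well: of 13 tested, 3 were lower, 2 were higher and 8 did not pass (median 0.07), beside 10.5% lower and 9.15% higher over all tested genes. KHSRP, which promotes such decay, had 339 ± 19.8 CPM with creatine and 427 ± 0.166 CPM in controls (-0.33, adjusted p = 0.0015), and ZFP36L1, which recruits the decay machinery, 432 ± 4.79 CPM with creatine and 511 ± 33.2 CPM in controls (-0.24, adjusted p = 0.0105). The decapping enzyme DCP2 had 39.2 ± 2.06 CPM with creatine and 29.6 ± 1.55 CPM in controls (0.41, adjusted p = 0.00588). ZFP36L2 (-0.30) and TIA1 (0.29), chosen after their values were seen, were the other two. Leaving out creatine 1 ended the call of KHSRP (adjusted p = 0.0546), ZFP36L1 (0.072), ZFP36L2 (0.134) and TIA1 (0.208). Leaving out creatine 2 ended that of ZFP36L1 (0.0901), ZFP36L2 (0.206), TIA1 (0.090) and DCP2 (0.0637), control 1 that of ZFP36L2 (0.103) and TIA1 (0.166), and control 2 that of ZFP36L2 (0.0666), which also did not pass with upper quartile scaling (0.0565) or with no filter on low counts (0.0543). With the trend removed the 5 lay at -0.10 for KHSRP, -0.17 for ZFP36L1, -0.16 for ZFP36L2, 0.03 for TIA1 and 0.18 for DCP2, and did not pass.

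Heat shock genes, which respond with immediate early genes to handling stress, had 3 lower, 2 higher and 4 that did not pass of 9 tested (median 0.01), beside 10.5% lower and 9.15% higher over all tested genes. The chaperone partner BAG3 had 56.6 ± 0.883 CPM with creatine and 87.2 ± 1.98 CPM in controls (-0.62, adjusted p = 6.5e-05), DNAJB1 106 ± 0.297 CPM with creatine and 141 ± 7.66 CPM in controls (-0.42, adjusted p = 0.000559), and the constitutive HSP70 gene HSPA8 1701 ± 81.8 CPM with creatine and 2203 ± 134 CPM in controls (-0.37, adjusted p = 0.0004). All 3 also passed with the trend removed, at -0.47, -0.30 and -0.36 (adjusted p = 0.00409, 0.0228 and 0.00432), where 0.863% of all tested genes were lower. The corrected call of DNAJB1 was lost without creatine 2 (-0.29, adjusted p = 0.0641). HSPE1 (0.45) and HSP90AA1 (0.17), chosen after their values were seen, were higher and did not pass with the trend removed (0.43 and 0.14). Without creatine 2 neither HSPE1 (0.0573) nor HSP90AA1 (0.260) passed, nor did HSPE1 without control 1 (0.387) or HSP90AA1 without creatine 1 (0.205). Of the most inducible genes of the list, HSPA1A and HSPA1B had no count in any library, and HSPA6 had too few reads to be tested. How reads with several matches were counted is not given, so the missing counts are not read as silent genes. The part of handling stress in the lower level of EGR1 was not tested.

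The genes whose profile over the 4 libraries lay closest to that of EGR1, by Euclidean distance between centred log2 CPM, were PLEKHA7, ATP2A1, SLC34A3, CHERP and C1QTNF6, at distances of 0.0752 to 0.0940. PLEKHA7, of the adherens junction, had 15.5 ± 0.338 CPM with creatine and 26.1 ± 1.36 CPM in controls (-0.75, adjusted p = 0.000238). CHERP, an RNA-processing protein, had 33.7 ± 0.498 CPM with creatine and 56.1 ± 2.25 CPM in controls (-0.73, adjusted p = 6.5e-05), and C1QTNF6 had 3.31 ± 0.0695 CPM with creatine and 5.64 ± 0.543 CPM in controls (-0.77, adjusted p = 0.0119). ATP2A1 (-0.91, adjusted p = 0.145) and SLC34A3 (-0.85, adjusted p = 0.340), both under 2 CPM, did not pass. C1QTNF6 did not pass without creatine 1 (0.0554) or control 1 (0.0727), nor with the trend removed (-0.55, adjusted p = 0.176). With the trend removed PLEKHA7 was at -0.54 (adjusted p = 0.0208, and 0.0508 without creatine 1) and CHERP at -0.46 (adjusted p = 0.0124). A likeness over 4 libraries is weak, and the 5 genes have 55.2 to 65.7% GC.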

How the data were processed

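The authors deposited whole-number read counts per gene symbol, not normalized, with a gene length, per the file headers. The submitters' processing notes list the build GRCh38 and the tools HISAT2 2.2.1, FastQC 0.11.9, featureCounts and DESeq2. Per the labels' protocols, total RNA went into a TruSeq kit. The sources used here give no annotation release, strand setting or treatment of reads with several matches. Of 34545 symbols, 34408 matched GENCODE 29, which gave coordinates, exons, GC content and 3′ ends. Counts were tested with edgeR 4.0.16 (R 4.3.3): filterByExpr, TMM factors of 0.993 to 1.01, and a quasi-likelihood fit with the group as its only term. Adjusted p-values are Benjamini-Hochberg over all genes tested, and log2 changes are creatine over control. CPM and RPKM use the same factors. With 2 residual degrees of freedom, the spread of a gene is moderated by that of all others (median total 22.9). Trends on GC content and log2 length were fitted per library with mgcv 1.9.3 and entered as an offset, with 23 tested genes given the median GC. Alternatives, among them DESeq2 1.42.0 and limma 3.58.1, are in the closing section. Floors cover counting error only, since no molecular identifiers are named. The named genes were the 10 members, the 3 smallest p-values of each of 7 lists and the 5 profiles closest to EGR1. A further 9 genes were chosen after their values were seen, as were CREBBP, RPS6KA1, ELK1 and RPS6KA2. Members and lists were chosen with earlier results of these data known. List genes without a row in the table, 4 in all, were not analysed here.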

Additional observations from a re-analysis of the deposited data

How the results depend on the processing

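Alternatives were other scalings, filters and tools, a replicate block, each library left out, and offsets for GC content with or without length. The tested members kept a negative log2 change in the fits run (DESeq2 gave FOSB no adjusted p, and that value was not used), except IER2, at 0.00614 with the GC offset and, with the GC and length offset, 0.00696 without creatine 1 and 0.0622 without control 2. The members called lower numbered 7 with all libraries and 2 to 7 with 1 library left out (2 without creatine 1), 1 with either offset, 2 with the GC and length offset and the replicate block, and 1 to 2 with that offset and 1 library left out. The genes called over the whole table numbered 3001 with all libraries, 1162 without creatine 1, 1949 without creatine 2 and up to 3116 with another library left out. They numbered 293 with the GC and length offset, 384 with the GC offset, 914 with the first offset and the block, and, with that offset, 113 without creatine 1, 224 without creatine 2, 387 without control 1 and 782 without control 2. The cause of these differences was not tested. A group left with 1 library was assumed to vary like the other. The difference between replicates 1 and 2 was not correlated between the groups (-0.0228 over 15302 genes). With 1 such difference per group, that cannot exclude a pairing by replicate number. With the replicate block 8 members were lower, FOS being added (adjusted p = 0.0453), and 3795 genes were called over the whole table, against 3001 without it. With 1 library left out, the difference in share, creatine minus control, ran from -1.28 to 0.332 percentage points for FOSL1, from -0.167 to 1.34 for FOSL2, from -0.0481 to 0.335 for JUNB and from -0.137 to -0.0327 for FOS. KLF2 was at 0.0369 with the GC offset. With the GC and length offset KLF2 was at 0.0650 without creatine 1 and 0.0628 without control 1, IL1A at -0.0221 without creatine 2 and TIA1 at -0.0177 without control 1. Of 179 member values under alternatives 132 kept their direction and their side of the threshold, and of 636 for 32 other named genes 438 did. CREBBP, RPS6KA1, ELK1 and RPS6KA2 were not among the 32. FOSB and IER3 had few counts, for a reason that was not tested, and this limits what can be said of them.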
